A study of Homo sapiens with 24 samples.

Results

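The integrin and laminin genes were examined in PAX8-depleted clear cell renal cell carcinoma (ccRCC) cells. The members were all genes whose symbol is that of an integrin α subunit (ITGA), an integrin β subunit (ITGB) or a laminin α, β or γ chain (LAMA, LAMB, LAMC). The rule used gene names alone, and it found 38 of the 26475 genes measured, made up of 18 α subunits, 8 β subunits and 12 laminin chains. RNA was sequenced from 2 metastatic ccRCC cell lines, 786-M1A and OS-LM1, each of which carries VHL mutations. Each line carried shPAX8-1 or shPAX8-2, short hairpin constructs that target the renal transcription factor PAX8, or sgNTC18, labelled as a construct of the guide RNA type. There were 4 libraries in each of the 6 groups. PAX8 depletion and the change from a guide construct to a hairpin construct cannot be told apart in any comparison with sgNTC18. Whether the sgNTC18 libraries belong to the same experiment as the hairpin libraries was not given in the sources used here, so that a difference between experiments cannot be told apart from them either. The comparison of shPAX8-1 with shPAX8-2 stays within hairpin libraries. All samples were cultured cancer cell lines without the stroma, vessels or basement membrane of a tumour.

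Integrins are receptors made of 1 α and 1 β subunit that join cells to the extracellular matrix and pass signals in both directions. Laminins are secreted trimers of 1 α, 1 β and 1 γ chain and are the main adhesive proteins of basement membranes, including those beneath the kidney tubule. In the tubule epithelium the pair α3β1 is a receptor for laminins that hold the α3 or α5 chain, α5β1 is the classical fibronectin receptor, and α1, α2, α10 and α11 pair with β1 to bind collagens.

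The hairpin guide strands are shown because the constructs differed in their effect on several members. Capitals mark the seed (bases 2 to 8), by which a small RNA can also pair with other transcripts.
shPAX8-1: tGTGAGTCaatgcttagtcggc
shPAX8-2: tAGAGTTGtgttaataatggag
Each guide of 22 bases is fully complementary to PAX8 on chromosome 2 (hg38, minus strand). The shPAX8-1 site lies at chr2:113241690-113241711 in the coding sequence, in exon 7 of 12 of the principal transcript, and the shPAX8-2 site at chr2:113218122-113218143 in the 3′ UTR, in exon 12. A match to the shPAX8-1 seed was present in the 3′ UTR of 2 of the 38 members, ITGA8 and ITGB8, against 6.85% of 19331 protein-coding genes. No member held a match to the shPAX8-2 seed, against 10.3% of genes.

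The summed expected counts ranged from 11634419 to 52059375 per library. PAX8 itself was lower in each depleted group. In 786-M1A cells it stood at 292, 393, 360 and 319 CPM (read counts scaled to a common library size) with sgNTC18, at 22.9, 21.9, 15.2 and 14.8 CPM with shPAX8-1 and at 41.4, 45.5, 42.6 and 40.0 CPM with shPAX8-2. In OS-LM1 cells the mean PAX8 level was 260 ± 14.5 CPM (SD, n = 4) with sgNTC18, 78.2 ± 13.1 with shPAX8-1 and 79.2 ± 13.7 with shPAX8-2. Depletion was therefore deeper in 786-M1A than in OS-LM1 cells (log2 fold changes of -4.16 and -2.99 against -1.76 and -1.71), and the difference between lines passed the test (1.87 ± 0.17, SE, adjusted p = 7.5e-10). The 4 libraries of 786-M1A shPAX8-1 fell into pairs, with replicates 1 and 2 apart from replicates 3 and 4, as the PAX8 values show. Some results lost or gained their call with either pair alone. The defining leukocyte marker PTPRC was at most 0.317 CPM in any library, CD3E was at 0 in every group mean, and none of the 4 endothelial markers reached a group mean of 1 CPM. Of the 5 leukocyte markers, 1 reached a group mean of at least 1 CPM with sgNTC18 in each line and 2 with either hairpin. The 5 fibroblast markers summed to between 533 and 722 CPM in 786-M1A cells with sgNTC18, 198 and 417 CPM with shPAX8-1 and 663 and 882 CPM with shPAX8-2, almost all of it PDGFRB. The 12 markers of kidney epithelium and ccRCC summed to between 10065 and 10427 CPM in 786-M1A cells with sgNTC18, 8054 and 8922 CPM with shPAX8-1 and 8617 and 9534 CPM with shPAX8-2, and 7 of the 10 tested were called lower with each construct. The OS-LM1 sums ranged from 9761 to 12958, from 6511 to 6876 and from 5055 to 6512 CPM in the same order, with 5 of 12 called higher and 5 lower with each construct. The part of these markers in the results was not tested.

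Of the 38 members, 31 reached a mean of at least 1 CPM in at least 1 group. The other 7, which were ITGA11, ITGA2B, ITGA8, ITGA9, ITGAD, ITGAL and LAMC3, stayed under 1 CPM in every group. On the TPM scale, which corrects for transcript length and allows genes to be compared, a few genes held most of each chain type. Among α subunits in sgNTC18 cells, ITGA3 held 66.2 ± 2.56% of the summed TPM in 786-M1A and 65.9 ± 1.01% in OS-LM1 cells (mean ± SD, n = 4), followed by ITGA5 with 24.5 ± 0.813% and 22.4 ± 0.538%. Among β subunits ITGB1, the partner of both, held 58.3 ± 3.15% and 80.2 ± 0.707%.

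With PAX8 depleted the order of the leading α subunits was the opposite in both lines. The share of ITGA3 was 17.6 ± 2.32% with shPAX8-1 and 28.3 ± 0.501% with shPAX8-2 in 786-M1A cells, and 25.5 ± 1.06% and 27.8 ± 2.16% in OS-LM1 cells. The share of ITGA5 was 58.9 ± 5.54% and 54.7 ± 1.96% in 786-M1A, and 60.9 ± 1.02% and 54.7 ± 1.67% in OS-LM1 cells. The summed α subunit level itself was 727 ± 48.7 TPM in 786-M1A sgNTC18 cells and 559 ± 87.8 and 587 ± 32.4 TPM with the hairpins, whereas in OS-LM1 cells it was 770 ± 49.2 TPM with sgNTC18 and 799 ± 98.1 and 863 ± 113 TPM with the hairpins. These shares are descriptions and were not tested.

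**Figure D1:**
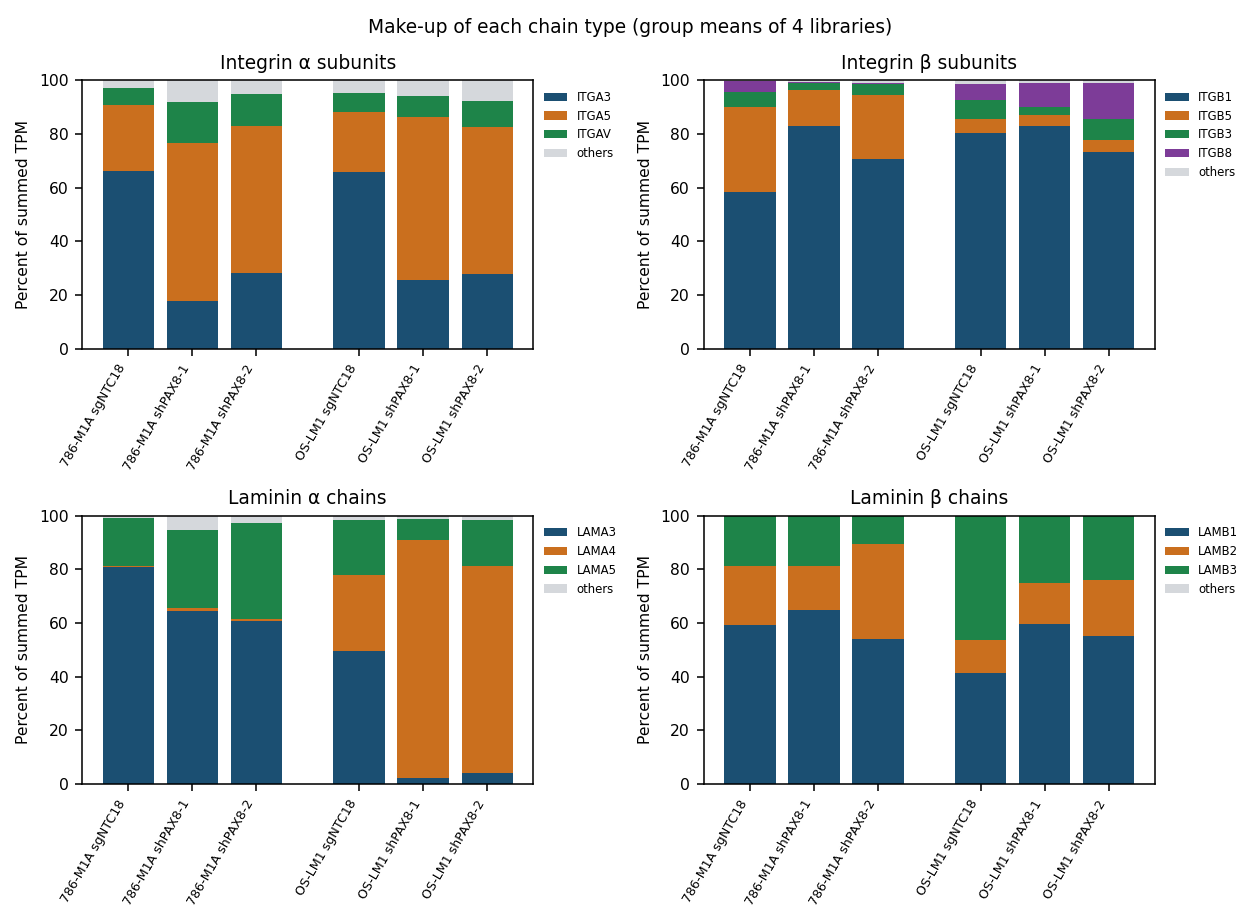
Make-up of the integrin α, integrin β, laminin α and laminin β genes (panels) in the 6 groups (horizontal axis), as mean percent of the summed TPM of each chain type over 4 libraries. ITGA3 is the largest α share with sgNTC18 and ITGA5 with either hairpin, and LAMA4 fills most of the laminin α bar in OS-LM1 cells with a hairpin (88.9% and 77.1%).

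Differences were tested gene by gene with edgeR's quasi-likelihood test, with Benjamini-Hochberg adjustment over all genes tested in the comparison, and a gene was called at an adjusted p under 0.05. Fold changes are on the log2 scale, with the standard error (SE). The comparisons of shPAX8-1 and of shPAX8-2 with sgNTC18 in a line share their control libraries. In 786-M1A cells 29 members were abundant enough to be tested. With shPAX8-1, 24 of the 29 were called, where 70.6% of all 14452 genes tested were called, and 17 were higher (36.1% of all genes) and 7 lower (34.5%). With shPAX8-2, 22 were called against 62.5% of all genes, with 17 higher (31.5%) and 5 lower (30.9%). In OS-LM1 cells, 29 members were tested. With shPAX8-1, 23 were called against 71.4% of 15049 genes, with 14 higher (35.6%) and 9 lower (35.8%). With shPAX8-2, 22 were called against 68.4%, with 13 higher (34.3%) and 9 lower (34.1%). Between 75.9% and 82.8% of the tested members were called, not far above the shares of all genes, and that difference was not tested. The median log2 fold change of the tested members was 0.82 and 0.73 in 786-M1A cells, where that of all genes was 0.03 and 0.02. In OS-LM1 cells the members' median was 0.20 and 0.10, and that of all genes -0.01 in both comparisons.

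**Figure D2:**
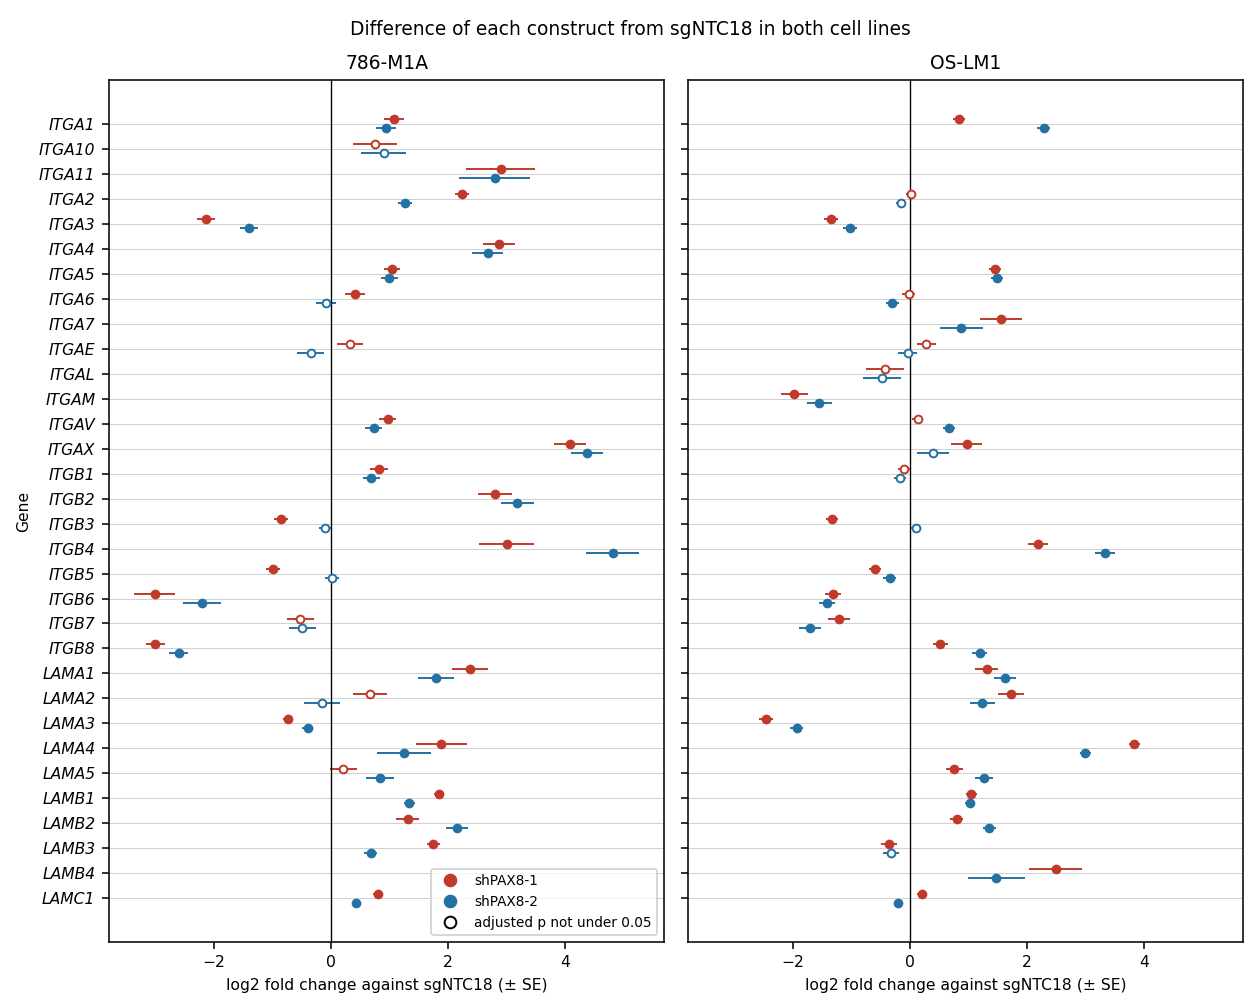
Log2 fold change of each tested member (vertical axis) in shPAX8-1 (red) and shPAX8-2 (blue) cells against sgNTC18, with bars of 1 SE, in 786-M1A (left) and OS-LM1 cells (right). Filled points have an adjusted p under 0.05 and open points do not. ITGB4 and LAMB1 lie to the right and ITGA3, ITGB6 and LAMA3 to the left in both lines, while ITGB8 lies left in 786-M1A and right in OS-LM1 cells.

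Among receptors for laminin, ITGA3 fell and ITGB4 rose in both lines. ITGA3, the α subunit of the laminin receptor α3β1, was measured at 1117, 1477, 1391 and 1215 CPM in 786-M1A sgNTC18 libraries, at 355, 352, 228 and 223 CPM with shPAX8-1 and at 495, 519, 467 and 465 CPM with shPAX8-2. All 8 depleted libraries lay below all 4 controls. The pair of shPAX8-1 libraries with the lowest PAX8 also had the lowest ITGA3. That pair was also the lower shPAX8-1 pair for ITGA5 (689 and 642 against 1060 and 903 CPM), which rose on depletion. A link between PAX8 and ITGA3 across these libraries was not tested. The log2 fold change was -2.14 ± 0.16 (adjusted p = 1.5e-08) with shPAX8-1 and -1.40 ± 0.15 (adjusted p = 1.7e-06) with shPAX8-2. In OS-LM1 cells ITGA3 stood at 1588, 1389, 1447 and 1350 CPM with sgNTC18, at 540, 636, 518 and 592 CPM with shPAX8-1 and at 685, 564, 914 and 665 CPM with shPAX8-2. Again no hairpin library reached a control, and the log2 fold changes were -1.36 ± 0.12 (adjusted p = 3.5e-09) and -1.03 ± 0.12 (adjusted p = 2.0e-07).

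ITGB4, which pairs with α6 in the hemidesmosome receptor α6β4, started from a low level. It was measured at 0.0411, 0.608, 0.388 and 0.351 CPM in 786-M1A sgNTC18 libraries, at 4.03, 3.67, 1.69 and 1.38 CPM with shPAX8-1 and at 11.5, 11.2, 6.38 and 8.80 CPM with shPAX8-2. In OS-LM1 cells the means were 1.11 ± 0.221 CPM with sgNTC18, 5.20 ± 0.444 CPM with shPAX8-1 and 11.1 ± 1.69 CPM with shPAX8-2. In both lines the groups did not overlap and shPAX8-2 libraries were the highest. The log2 fold changes were 3.01 ± 0.47 (adjusted p = 3.9e-05) and 4.82 ± 0.45 (adjusted p = 3.6e-07) in 786-M1A cells, and 2.19 ± 0.17 (adjusted p = 7.9e-10) and 3.33 ± 0.17 (adjusted p = 1.9e-12) in OS-LM1 cells. The 786-M1A controls held 32 reads of ITGB4 in all, so the fold changes there rest on few control reads. ITGB4 entered the test in that line through the hairpin libraries. Its partner ITGA6 had means between 27.6 and 38.7 CPM in the 786-M1A groups and between 15.3 and 18.9 CPM in the OS-LM1 groups. ITGA6 was called higher with shPAX8-1 in 786-M1A cells (0.41 ± 0.17, adjusted p = 0.0392), but the value was 0.11 (adjusted p = 0.58) with replicates 1 and 2 alone and 0.06 (adjusted p = 0.63) once each library's GC trend was removed. It was called lower with shPAX8-2 in OS-LM1 cells (-0.30 ± 0.11, adjusted p = 0.026), a call lost without any 1 of 5 libraries (adjusted p up to 0.083). ITGA7, the α subunit of the muscle laminin receptor α7β1, was tested against sgNTC18 only in OS-LM1 cells, where its mean was 0.468 ± 0.25 CPM with sgNTC18, 1.43 ± 0.192 CPM with shPAX8-1 (log2 fold change of 1.56 ± 0.36, adjusted p = 7.2e-04) and 0.847 ± 0.306 CPM with shPAX8-2 (0.88 ± 0.37, adjusted p = 0.0409). The shPAX8-2 call was lost without most single libraries (adjusted p up to 0.15).

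The fibronectin receptor subunit ITGA5 moved opposite to ITGA3. It was measured at 371, 430, 425 and 405 CPM in 786-M1A sgNTC18 libraries, at 1060, 903, 689 and 642 CPM with shPAX8-1 and at 855, 848, 732 and 774 CPM with shPAX8-2. OS-LM1 libraries held 462, 386, 436 and 389 CPM with sgNTC18, 1111, 1223, 1095 and 1215 CPM with shPAX8-1 and 1123, 998, 1413 and 1165 CPM with shPAX8-2. All 16 hairpin libraries were above all 8 controls. The log2 fold changes were 1.04 ± 0.14 (adjusted p = 7.0e-06) and 1.00 ± 0.14 (adjusted p = 1.6e-05) in 786-M1A cells, and 1.45 ± 0.10 (adjusted p = 1.3e-10) and 1.49 ± 0.10 (adjusted p = 1.0e-10) in OS-LM1 cells.

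ITGAV, the α subunit of the vitronectin and TGFβ-activating integrins, had means of 173 ± 25.8, 334 ± 73.7 and 282 ± 30.4 CPM in 786-M1A cells with sgNTC18, shPAX8-1 and shPAX8-2, and rose by both constructs (0.97 ± 0.15, adjusted p = 3.1e-05, and 0.73 ± 0.15, adjusted p = 5.9e-04). Across the alternatives the first ran from 0.32 to 1.22 and the second from 0.66 to 0.83. In OS-LM1 cells the means were 216 ± 18.3, 241 ± 25.4 and 343 ± 34.9 CPM, and ITGAV was called with shPAX8-2 (0.67 ± 0.10, adjusted p = 5.1e-06) but not with shPAX8-1 (0.13 ± 0.10, adjusted p = 0.236). With the GC trend removed, the value with shPAX8-1 was -0.40 (adjusted p = 5.3e-04), so that no direction can be given for it.

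Among receptors for collagen, ITGA1 rose in both lines and ITGA2 rose in 786-M1A cells. ITGA2, the α subunit of the collagen and laminin receptor α2β1, stood at 20.5, 15.7, 18.8 and 16.5 CPM in 786-M1A sgNTC18 libraries, at 69.2, 81.5, 94.9 and 87.1 CPM with shPAX8-1 and at 42.8, 43.8, 44.1 and 38.9 CPM with shPAX8-2. The 3 groups did not overlap, and the log2 fold changes were 2.24 ± 0.12 (adjusted p = 9.7e-10) and 1.26 ± 0.12 (adjusted p = 4.8e-07). All OS-LM1 libraries lay between 39.6 and 48.1 CPM in all 3 groups, with log2 fold changes of 0.01 ± 0.08 (adjusted p = 0.876) and -0.16 ± 0.08 (adjusted p = 0.0843). With the GC trend removed both were called lower, at -0.31 (adjusted p = 5.3e-04) and -0.41 (adjusted p = 2.8e-05). ITGA1, of the collagen IV receptor α1β1, had means of 4.38 ± 0.353, 9.16 ± 2.06 and 8.30 ± 1.18 CPM in 786-M1A cells (1.08 ± 0.17, adjusted p = 3.9e-05, and 0.94 ± 0.17, adjusted p = 2.3e-04). In OS-LM1 cells it stood at 22.5, 22.0, 23.3 and 24.8 CPM with sgNTC18, at 45.7, 41.7, 42.0 and 39.1 CPM with shPAX8-1 and at 107, 136, 98.9 and 109 CPM with shPAX8-2. The OS-LM1 groups formed 3 separate steps, with log2 fold changes of 0.84 ± 0.10 (adjusted p = 5.3e-07) and 2.29 ± 0.11 (adjusted p = 5.8e-13).

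The other collagen receptors were scarce. ITGA11 averaged 0.0697 CPM in 786-M1A sgNTC18 libraries, 0.578 CPM with shPAX8-1 and 0.536 CPM with shPAX8-2, and was called in both comparisons (2.90 ± 0.59, adjusted p = 4.3e-04, and 2.80 ± 0.61, adjusted p = 9.6e-04). One 786-M1A control library was at 0 for ITGA11, so these fold changes rest on very few reads. ITGA11 entered the test through the hairpin libraries. ITGA10 had means of 0.664, 1.12 and 1.26 CPM in 786-M1A cells and was not called (0.75 ± 0.38, adjusted p = 0.0911, and 0.90 ± 0.38, adjusted p = 0.054), although both passed with the GC trend removed (0.98 and 0.95).

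Integrins best known from leukocytes were present at low levels. In 786-M1A cells ITGAX, the α subunit that pairs with β2 on myeloid cells, was measured at 0.739, 0.663, 0.615 and 0.395 CPM with sgNTC18, at 14.3, 11.6, 7.83 and 7.18 CPM with shPAX8-1 and at 14.4, 14.2, 9.53 and 11.7 CPM with shPAX8-2. Its partner ITGB2 stood at 0.698, 0.553, 0.421 and 0.176 CPM with sgNTC18, at 2.51, 3.63, 3.25 and 3.37 CPM with shPAX8-1 and at 4.89, 4.48, 3.73 and 3.53 CPM with shPAX8-2. Every hairpin library exceeded every control for both genes. The log2 fold changes were 4.09 ± 0.28 (adjusted p = 6.7e-09) and 4.38 ± 0.28 (adjusted p = 7.3e-09) for ITGAX, and 2.80 ± 0.29 (adjusted p = 5.5e-07) and 3.19 ± 0.29 (adjusted p = 2.5e-07) for ITGB2. Over the 4 sgNTC18 libraries ITGAX held 58 reads and ITGB2 44, so these sizes rest on few control reads. Entry of both genes to the test depended on the hairpin libraries, where they were higher. PTPRC averaged between 0.0807 and 0.117 CPM in the same 3 groups. Of the 5 leukocyte markers in the fixed list, 2 were tested in 786-M1A cells. Of these, 1 was called higher with each construct, and with shPAX8-2 the other was called lower. The part of these markers in the ITGAX and ITGB2 results was not tested.

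ITGA4, of the VCAM-1 receptor α4β1, rose in 786-M1A cells from 0.484 ± 0.168 CPM to 3.65 ± 0.575 CPM with shPAX8-1 (2.87 ± 0.27, adjusted p = 1.8e-07) and 3.23 ± 0.797 CPM with shPAX8-2 (2.68 ± 0.27, adjusted p = 7.8e-07). ITGA4 held 49 reads in all over the 4 sgNTC18 libraries of 786-M1A, so these fold changes rest on few control reads. ITGA4 entered the test in that line through the hairpin libraries. It averaged at most 0.05 CPM in the OS-LM1 groups, and neither ITGA4 nor ITGB2 was abundant enough there to be tested against sgNTC18. In OS-LM1 cells ITGAX was called with shPAX8-1 (0.97 ± 0.26, adjusted p = 0.00287) and not with shPAX8-2 (0.39 ± 0.27, adjusted p = 0.203; 0.62, adjusted p = 0.043, with the GC trend removed). ITGAM, the αM of complement receptor 3, fell there from 4.11 ± 0.588 CPM to 1.07 ± 0.328 CPM (-1.98 ± 0.23, adjusted p = 2.0e-07) and 1.37 ± 0.245 CPM (-1.55 ± 0.22, adjusted p = 3.4e-06). ITGB7, of the gut-homing receptor α4β7, fell in OS-LM1 cells from 4.01 ± 0.354 CPM to 1.76 ± 0.146 CPM (-1.21 ± 0.19, adjusted p = 9.5e-06) and 1.22 ± 0.291 CPM (-1.71 ± 0.19, adjusted p = 2.2e-07). In 786-M1A cells ITGB7 missed the threshold with either construct (-0.53 ± 0.23, adjusted p = 0.0515, and -0.49 ± 0.23, adjusted p = 0.0819). ITGAE, which pairs with β7 to bind E-cadherin, had group means between 8.29 and 25.2 CPM and was not called against sgNTC18 in either line. LCP1, an actin-bundling protein in the fixed leukocyte list, averaged 271 CPM in OS-LM1 cells with sgNTC18, 134 CPM with shPAX8-1 and 189 CPM with shPAX8-2, and its part in these results was not tested. Of the 2 markers of that list tested in OS-LM1 cells, 1 was called higher and 1 lower with each construct.

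Among the β subunits, ITGB8 fell in 786-M1A cells and was higher in OS-LM1 cells. ITGB8 encodes the β subunit of αvβ8, which activates latent TGFβ. It was measured at 153, 115, 132 and 127 CPM in 786-M1A sgNTC18 libraries, at 14.4, 14.4, 17.8 and 17.7 CPM with shPAX8-1 and at 20.5, 18.4, 28.8 and 17.9 CPM with shPAX8-2. OS-LM1 libraries held 202, 206, 248 and 239 CPM with sgNTC18, 335, 324, 353 and 296 CPM with shPAX8-1 and 526, 659, 439 and 405 CPM with shPAX8-2. Hairpin libraries lay below every control in 786-M1A cells and above every control in OS-LM1 cells. The log2 fold changes were -3.01 ± 0.16 (adjusted p = 6.5e-10) and -2.61 ± 0.16 (adjusted p = 4.6e-09) in 786-M1A cells, against 0.52 ± 0.13 (adjusted p = 0.00105) and 1.19 ± 0.13 (adjusted p = 1.1e-07) in OS-LM1 cells. The OS-LM1 value with shPAX8-1 was 0.15 (adjusted p = 0.11) where the GC trend of each library was removed.

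ITGB6, of the epithelial integrin αvβ6, fell in both lines. In 786-M1A cells it averaged 2.46 ± 0.181 CPM with sgNTC18, 0.293 ± 0.0172 CPM with shPAX8-1 (-3.02 ± 0.35, adjusted p = 1.7e-06) and 0.545 ± 0.317 CPM with shPAX8-2 (-2.21 ± 0.33, adjusted p = 3.7e-05). In OS-LM1 cells it was measured at 20.5, 27.0, 24.8 and 22.5 CPM with sgNTC18, at 10.5, 10.1, 10.0 and 8.20 CPM with shPAX8-1 (-1.32 ± 0.14, adjusted p = 1.0e-07) and at 7.0, 11.3, 7.66 and 9.38 CPM with shPAX8-2 (-1.42 ± 0.14, adjusted p = 4.7e-08). The groups of hairpin libraries overlapped each other and not the controls.

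ITGB3 in both lines and ITGB5 in 786-M1A cells, the β subunits of the vitronectin receptors αvβ3 and αvβ5, differed between constructs. ITGB3 was measured between 95 and 113 CPM in 786-M1A sgNTC18 libraries, at 66.8, 65.6, 50.9 and 48.8 CPM with shPAX8-1 and at 101, 102, 91.8 and 95.4 CPM with shPAX8-2. OS-LM1 libraries held 163, 141, 161 and 153 CPM with sgNTC18, between 52.7 and 69.2 CPM with shPAX8-1 and 171, 155, 185 and 149 CPM with shPAX8-2. In each line the shPAX8-1 libraries were below all others, while the shPAX8-2 libraries overlapped the controls. ITGB3 fell with shPAX8-1 (-0.85 ± 0.12, adjusted p = 9.0e-06, in 786-M1A and -1.34 ± 0.10, adjusted p = 3.0e-10, in OS-LM1 cells). With shPAX8-2 the values were -0.10 ± 0.11 (adjusted p = 0.45) and 0.10 ± 0.09 (adjusted p = 0.354).

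ITGB5 stood at 493, 530, 549 and 518 CPM in 786-M1A sgNTC18 libraries, at 330, 259, 228 and 217 CPM with shPAX8-1 and at 532, 546, 449 and 540 CPM with shPAX8-2. It fell with shPAX8-1 (-1.0 ± 0.12, adjusted p = 3.2e-06), and the shPAX8-2 libraries overlapped the controls. The OS-LM1 means were 104 ± 8.73, 70.0 ± 8.36 and 81.1 ± 11.9 CPM, and ITGB5 was called with both constructs (-0.60 ± 0.11, adjusted p = 5.3e-05, and -0.35 ± 0.11, adjusted p = 0.00645). The second of these was -0.15 (adjusted p = 0.097) where the GC trend was removed. ITGB1, the common β subunit of the laminin, collagen and fibronectin receptors above, averaged 854 ± 104, 1485 ± 341 and 1355 ± 182 CPM in 786-M1A cells, and rose with both constructs (0.82 ± 0.15, adjusted p = 1.7e-04, and 0.69 ± 0.15, adjusted p = 0.00102). Across the alternatives ITGB1 ran from 0.32 to 1.07 with shPAX8-1 and from 0.61 to 0.77 with shPAX8-2. In OS-LM1 cells it averaged 1370 ± 121, 1303 ± 108 and 1211 ± 151 CPM and was not called (-0.10 ± 0.10, adjusted p = 0.401, and -0.17 ± 0.10, adjusted p = 0.142). With the GC trend removed it was called lower with both constructs (-0.45, adjusted p = 4.5e-05, and -0.46, adjusted p = 3.8e-05).

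**Figure D3:**
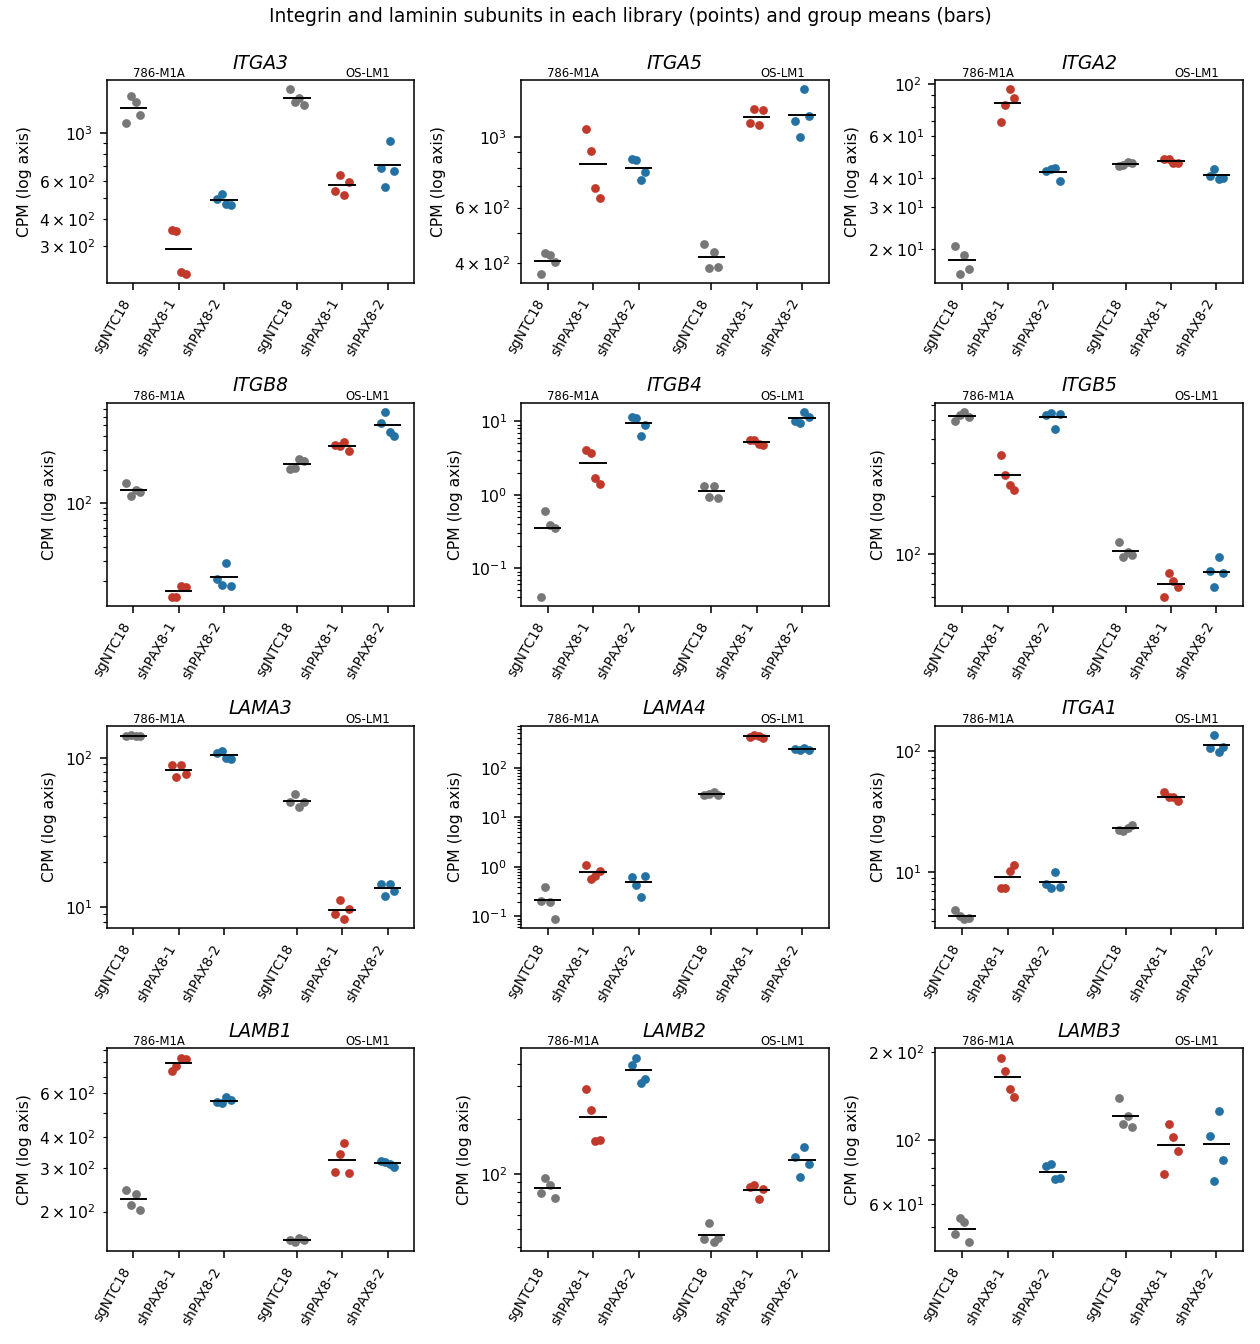
Level of 12 members in each of the 24 libraries, in CPM on a log axis. Points are libraries, bars are means of 4 libraries, grey marks sgNTC18, red shPAX8-1 and blue shPAX8-2, with 786-M1A on the left and OS-LM1 on the right of each panel. ITGB8 is lower than the controls with either hairpin in 786-M1A and higher in OS-LM1 cells, and LAMA4 is under 2 CPM in every 786-M1A library.

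Among laminin α chains, LAMA4 rose in OS-LM1 cells and LAMA3 fell in both lines. LAMA4, a chain of laminins made by endothelial and mesenchymal cells, was measured at 28.1, 30.4, 33.1 and 28.5 CPM in OS-LM1 sgNTC18 libraries, at 428, 467, 452 and 412 CPM with shPAX8-1 and at 244, 233, 249 and 229 CPM with shPAX8-2. The 3 groups were well apart, and the log2 fold changes were 3.84 ± 0.09 (adjusted p = 2.0e-17) and 3.0 ± 0.09 (adjusted p = 6.1e-16). LAMA4 rose from 28.6 ± 1.57% of the summed laminin α TPM in OS-LM1 controls to 88.9 ± 1.28% and 77.1 ± 2.90%, without a test of these shares. In 786-M1A cells it averaged 0.219, 0.788 and 0.493 CPM, and its calls there (1.89 ± 0.43, adjusted p = 0.001, and 1.25 ± 0.46, adjusted p = 0.0282) rest on few reads. The second was at an adjusted p of 0.051 with DESeq2. LAMA4 entered the test in 786-M1A cells through the hairpin libraries. Of the 5 fibroblast markers in a fixed list, all 5 were called higher with shPAX8-1 in OS-LM1 cells and 4 with shPAX8-2. Of all genes, 35.6% and 34.3% were called higher. The summed level of the markers ranged from 0.704 to 0.974 CPM with sgNTC18, from 15.9 to 20.2 CPM with shPAX8-1 and from 5.12 to 5.95 CPM with shPAX8-2. At that control level their entry to the test could depend on the hairpin libraries, where they were higher, which favours calls in that direction. COL3A1 made up most of that sum (14.3 and 3.08 CPM), PDGFRA averaged 0.530 and 0.550 CPM and DCN 0.711 and 0.292 CPM. In OS-LM1 cells 2 of the 5 markers, COL3A1 and another, reached a mean of 1 CPM with shPAX8-1, and 1 did with shPAX8-2. The part of these markers in the LAMA4 result was not tested.

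LAMA3, the α chain of laminin-332, fell in both lines. It was measured at 139, 142, 139 and 140 CPM in 786-M1A sgNTC18 libraries, at 89.5, 74.6, 88.8 and 78.2 CPM with shPAX8-1 and at 108, 111, 99.7 and 98.6 CPM with shPAX8-2 (-0.74 ± 0.09, adjusted p = 3.1e-06, and -0.40 ± 0.09, adjusted p = 0.00116). OS-LM1 libraries held 50.5, 57.2, 46.5 and 50.9 CPM with sgNTC18, 9.04, 11.1, 8.31 and 9.71 CPM with shPAX8-1 and 14.3, 11.9, 14.2 and 12.9 CPM with shPAX8-2 (-2.46 ± 0.12, adjusted p = 5.8e-13, and -1.94 ± 0.11, adjusted p = 1.6e-11). The groups did not overlap in either line. LAMA3 held 80.9 ± 3.53% of the laminin α TPM in 786-M1A controls and remained the largest share there with the hairpins (64.5 ± 6.89% and 60.9 ± 5.17%), whereas in OS-LM1 cells it went from 49.4 ± 0.907% to 2.15 ± 0.231% and 4.11 ± 0.577%.

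LAMB3, the β chain of laminin-332, did not follow LAMA3. It rose in 786-M1A cells from 47.2, 53.6, 52.1 and 44.4 CPM to 192, 173, 150 and 140 CPM with shPAX8-1 (1.75 ± 0.11, adjusted p = 4.5e-09) and to 81.3, 82.4, 73.2 and 73.6 CPM with shPAX8-2 (0.68 ± 0.11, adjusted p = 9.3e-05). In OS-LM1 cells its groups overlapped, with means of 121 ± 12.7, 95.7 ± 15.5 and 96.4 ± 23.3 CPM, and it was called only with shPAX8-1 (-0.36 ± 0.14, adjusted p = 0.0302, and -0.32 ± 0.14, adjusted p = 0.0545). The first was 0.05 (adjusted p = 0.71) with the GC trend removed, and it was lost without any 1 of 5 libraries (adjusted p up to 0.13).

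The promoter windows of LAMA3, LAMB3 and ITGA5 are shown because these were the 3 of 26 members with a promoter entry that hold the AP-1 motif TGANTCA, which was searched on both strands. Of all 35116 promoter windows of 300 bases, 7.71% held it, which is a share of windows and not of genes. Also searched were the hypoxia-response core ACGTG, found in 2 of the 26 members (21.4% of windows), and the GC box GGGCGG, found in 14 (45.0%). Windows run from 250 bases before to 50 bases after a transcription start (RefSeq, GRCh38.p14), read along the gene's strand, with the motif in capitals. ITGA3 is among the 12 members with no entry.
LAMA3 (chr18:23872770-23873069, plus strand): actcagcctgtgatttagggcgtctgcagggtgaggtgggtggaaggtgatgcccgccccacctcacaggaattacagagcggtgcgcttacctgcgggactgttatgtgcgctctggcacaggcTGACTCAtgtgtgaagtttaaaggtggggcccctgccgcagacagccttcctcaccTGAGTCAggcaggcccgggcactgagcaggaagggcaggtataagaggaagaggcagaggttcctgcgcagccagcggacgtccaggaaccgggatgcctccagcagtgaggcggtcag
LAMB3 (chr1:209651325-209651624, minus strand): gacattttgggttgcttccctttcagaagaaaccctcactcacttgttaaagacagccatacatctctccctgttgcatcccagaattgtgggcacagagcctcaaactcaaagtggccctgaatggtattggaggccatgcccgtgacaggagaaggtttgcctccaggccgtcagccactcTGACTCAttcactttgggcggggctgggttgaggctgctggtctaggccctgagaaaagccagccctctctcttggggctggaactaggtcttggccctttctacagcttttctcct
ITGA5 (chr12:54419217-54419516, minus strand): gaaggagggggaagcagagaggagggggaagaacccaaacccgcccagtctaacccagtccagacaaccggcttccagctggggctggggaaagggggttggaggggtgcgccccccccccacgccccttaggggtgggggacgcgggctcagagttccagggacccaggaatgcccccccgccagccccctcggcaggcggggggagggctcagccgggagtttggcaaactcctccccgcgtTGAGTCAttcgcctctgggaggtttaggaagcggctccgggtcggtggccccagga
The motif began 125 and 69 bases before the start in LAMA3, 67 bases before it in LAMB3 and 6 bases before it in ITGA5. The LAMA3 and LAMB3 windows lie inside their genes (chr18:23689453-23955066 and chr1:209614870-209652425), at starts that are not the outermost. LAMA3 fell in both lines and ITGA5 rose in both. LAMB3 rose in 786-M1A cells and was called lower in OS-LM1 cells with shPAX8-1 alone. A part of the motif in these changes was not tested.

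LAMB1 and LAMB2 rose in both lines with both constructs. LAMB1, the β chain of many laminins, was measured at 245, 212, 235 and 204 CPM in 786-M1A sgNTC18 libraries, at 740, 772, 836 and 828 CPM with shPAX8-1 and at 552, 547, 581 and 563 CPM with shPAX8-2 (1.85 ± 0.09, adjusted p = 2.3e-10, and 1.34 ± 0.09, adjusted p = 7.8e-09). OS-LM1 libraries held 154, 151, 156 and 154 CPM with sgNTC18, 288, 343, 378 and 287 CPM with shPAX8-1 and 320, 318, 310 and 304 CPM with shPAX8-2 (1.05 ± 0.09, adjusted p = 3.6e-09, and 1.03 ± 0.09, adjusted p = 5.7e-09). Hairpin libraries of LAMB1 were above every control of their line.

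LAMB2, the β chain of the laminin of the mature glomerular basement membrane, stood at 78.7, 94.6, 87.1 and 74.3 CPM in 786-M1A sgNTC18 libraries, at 291, 224, 151 and 153 CPM with shPAX8-1 and between 315 and 431 CPM with shPAX8-2 (1.31 ± 0.19, adjusted p = 1.5e-05, and 2.15 ± 0.19, adjusted p = 2.1e-07). The OS-LM1 means were 46.3 ± 5.06, 82.0 ± 5.99 and 119 ± 18.8 CPM (0.80 ± 0.11, adjusted p = 3.1e-06, and 1.36 ± 0.11, adjusted p = 2.6e-09). In both lines the groups did not overlap and shPAX8-2 was highest. LAMB2P1, a pseudogene copy of LAMB2 that could share reads with it, averaged 0.0527, 0.765 and 2.09 CPM in the same 3 groups of 786-M1A cells. LAMA5, the α chain of the most widespread adult laminins, had means of 52.0 ± 10.6, 59.3 ± 20.6 and 91.3 ± 24.4 CPM in 786-M1A cells. It was called with shPAX8-2 (0.84 ± 0.24, adjusted p = 0.00607) and not with shPAX8-1 (0.21 ± 0.23, adjusted p = 0.429). The shPAX8-1 value was 0.85 (adjusted p = 4.3e-07) with the GC trend removed, 0.54 (adjusted p = 0.035) with replicates 1 and 2 alone and -0.27 (adjusted p = 0.28) with replicates 3 and 4 alone. In OS-LM1 cells LAMA5 rose from 35.5 ± 2.03 CPM to 61.3 ± 10.3 CPM (0.76 ± 0.15, adjusted p = 1.5e-04) and 85.1 ± 22.5 CPM (1.27 ± 0.15, adjusted p = 4.6e-07).

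LAMC1, the γ chain shared by most laminins, had means of 338 ± 22.4, 578 ± 28.6 and 448 ± 23.9 CPM in 786-M1A cells and rose with both constructs (0.80 ± 0.08, adjusted p = 6.1e-07, and 0.43 ± 0.08, adjusted p = 3.7e-04). In OS-LM1 cells, at 558 ± 12.9, 653 ± 31.5 and 485 ± 22.8 CPM, it was called in opposite directions (0.20 ± 0.08, adjusted p = 0.0229, and -0.20 ± 0.08, adjusted p = 0.0258), and each call was lost without either of 2 libraries. LAMA1, the α chain of laminin-111, rose in all 4 comparisons, from 1.32 ± 0.604 CPM to 6.97 ± 1.95 and 4.63 ± 1.30 CPM in 786-M1A cells (2.38 ± 0.31, adjusted p = 5.5e-06, and 1.80 ± 0.31, adjusted p = 1.4e-04), and from 1.13 ± 0.212 CPM to 2.87 ± 0.336 and 3.52 ± 0.424 CPM in OS-LM1 cells (1.31 ± 0.20, adjusted p = 6.8e-06, and 1.63 ± 0.19, adjusted p = 4.1e-07). LAMA2, the α chain of muscle laminin-211, rose in OS-LM1 cells from 1.42 ± 0.179 CPM to 4.81 ± 0.312 CPM (1.73 ± 0.22, adjusted p = 8.7e-07) and 3.35 ± 1.25 CPM (1.24 ± 0.22, adjusted p = 6.3e-05). In 786-M1A cells its values were 0.66 ± 0.29 (adjusted p = 0.0543) and -0.15 ± 0.31 (adjusted p = 0.695), and the first was 1.01 (adjusted p = 0.0081) with replicates 3 and 4 alone. LAMB4 was tested against sgNTC18 in OS-LM1 cells alone, at 0.182, 1.07 and 0.517 CPM, and was called with both constructs (2.49 ± 0.45, adjusted p = 6.2e-05, and 1.48 ± 0.48, adjusted p = 0.0101). The 4 controls held 25 reads of LAMB4 in all, at 0.0282 to 0.264 CPM, so these fold changes rest on few reads. Its entry to the test depended on the hairpin libraries, where it was higher.

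Before depletion the lines already differed in their receptors and laminins. Of 34 members tested between sgNTC18 cells, 23 were called, against 63.0% of 15665 genes, with 16 higher in OS-LM1 (32.0% of all genes) and 7 lower (31.0%). LAMA4 was 7.13 ± 0.19 higher in OS-LM1 cells on the log2 scale (adjusted p = 2.9e-21), ITGAM 3.98 ± 0.39 higher (adjusted p = 1.5e-09), ITGB6 3.27 ± 0.18 higher (adjusted p = 1.2e-14) and ITGA1 2.40 ± 0.14 higher (adjusted p = 2.4e-14). ITGA4 was lower (-4.22 ± 0.66, adjusted p = 3.6e-06), as were ITGB5 (-2.33 ± 0.12, adjusted p = 4.9e-15) and LAMA3 (-1.45 ± 0.09, adjusted p = 2.9e-13). The size of the ITGA4 difference rests on few reads, 3 in all in the OS-LM1 controls and 49 in those of 786-M1A. It ran from -6.41 to -3.8 across the alternatives. The sizes for LAMA4 and ITGAM also rest on few 786-M1A control reads, 20 and 24 in all. They ran from 6.74 to 7.45 and from 3.55 to 4.38. Line and any difference in the handling of these cultures cannot be told apart.

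The change on depletion was then compared between lines, as the mean of both hairpins against sgNTC18 in OS-LM1 cells minus the same in 786-M1A cells. A positive value can mean a larger rise, a smaller fall or both in OS-LM1 cells. Of the 34 members tested, 21 were called, against 58.7% of all genes, and PAX8 itself differed by 1.87. ITGB8 had the largest positive difference among members (3.70 ± 0.18, adjusted p = 2.7e-15), with a fall in 786-M1A and a rise in OS-LM1 cells. LAMA4 (1.86 ± 0.37, adjusted p = 1.0e-04) rose more in OS-LM1 cells. ITGB6 (1.29 ± 0.27, adjusted p = 1.9e-04) and ITGA3 (0.61 ± 0.17, adjusted p = 0.0042) fell less there. Among negative differences, those of ITGB2 (-3.67 ± 0.58, adjusted p = 5.2e-06) and ITGAX (-3.52 ± 0.36, adjusted p = 4.6e-09) followed rises in 786-M1A cells. Those of ITGA2 (-1.79 ± 0.12, adjusted p = 1.3e-12) and LAMB3 (-1.53 ± 0.17, adjusted p = 2.5e-08) also followed rises in 786-M1A cells. The size of the ITGB2 difference rests on few OS-LM1 reads, 38 in all with sgNTC18, 9 with shPAX8-1 and 31 with shPAX8-2. It ran from -3.97 to -3.04 across the alternatives. LAMA3 (-1.59 ± 0.12, adjusted p = 8.5e-12) fell further in OS-LM1 cells, although PAX8 fell less there.

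**Figure D4:**
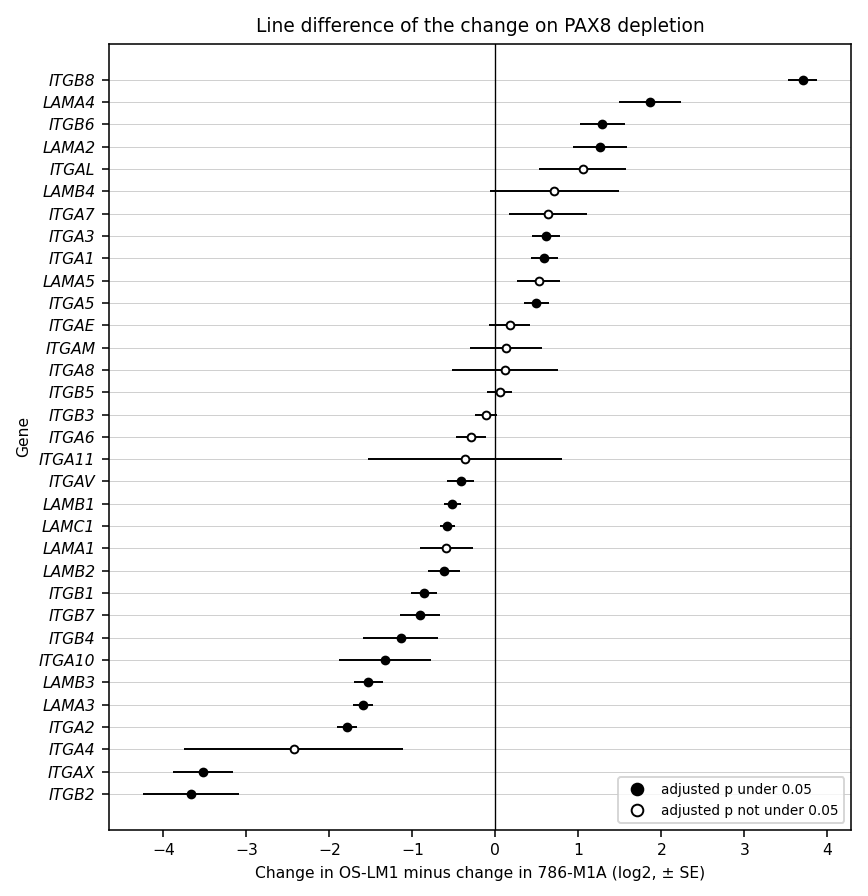
Difference between lines in the log2 change on PAX8 depletion (OS-LM1 minus 786-M1A, horizontal axis, with bars of 1 SE) for tested members (vertical axis). Filled points have an adjusted p under 0.05. ITGB8 is highest at 3.70, and ITGB2 and ITGAX are lowest at -3.67 and -3.52. The ITGB2 value rests on few reads in OS-LM1 cells.

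Within the hairpin libraries, shPAX8-1 was compared directly with shPAX8-2. In 786-M1A cells 15 of 29 members were called, against 47.1% of all genes, and PAX8 was lower with shPAX8-1 (-1.18 ± 0.15, adjusted p = 4.0e-05). LAMB3 (1.08 ± 0.11, adjusted p = 8.2e-06) and ITGA2 (0.97 ± 0.12, adjusted p = 3.3e-05) were higher with shPAX8-1. ITGB4 (-1.81 ± 0.36, adjusted p = 0.00112), ITGB5 (-1.0 ± 0.12, adjusted p = 3.1e-05), LAMB2 (-0.84 ± 0.18, adjusted p = 0.0022), ITGA3 (-0.75 ± 0.15, adjusted p = 0.0013) and ITGB3 (-0.75 ± 0.12, adjusted p = 1.9e-04) were lower. Over all genes this contrast ran with GC content (rank correlation of -0.557 across genes, which are not independent replicates). LAMA5, called at -0.62 ± 0.24 (adjusted p = 0.0404), was at -0.07 (adjusted p = 0.56) with the GC trend removed and -0.27 (adjusted p = 0.4) with replicates 1 and 2 alone. Across the alternatives ITGA3 ran from -1.12 to -0.29, LAMB2 from -1.28 to -0.42 and ITGB4 from -2.64 to -1.3, so their sizes are uncertain. Against sgNTC18 the correlation with GC was -0.363 and -0.0984 (shPAX8-1 and shPAX8-2) in 786-M1A cells, and -0.321 and -0.275 in OS-LM1 cells. It was -0.207 between constructs in OS-LM1 cells and -0.245 between control lines. For the line differences it was -0.0478 (depletion) and 0.397 (constructs).

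In OS-LM1 cells 12 of 29 members were called between the constructs, against 29.1% of all genes, and PAX8 was not (-0.05 ± 0.12, adjusted p = 0.797). ITGA1 (-1.45 ± 0.10, adjusted p = 5.3e-09), ITGB3 (-1.44 ± 0.10, adjusted p = 2.8e-09), ITGB4 (-1.14 ± 0.15, adjusted p = 1.2e-05), ITGB8 (-0.67 ± 0.13, adjusted p = 5.6e-04) and LAMB2 (-0.57 ± 0.11, adjusted p = 7.1e-04) were lower with shPAX8-1, and LAMA4 (0.85 ± 0.08, adjusted p = 2.0e-07) was higher. ITGB3, ITGB4 and LAMB2 were lower with shPAX8-1 in each line by tests on separate libraries. So were ITGA3 (-0.34 ± 0.11, adjusted p = 0.0334, in OS-LM1) and ITGB8 (-0.41 ± 0.15, adjusted p = 0.0412, in 786-M1A). LAMA3 (-0.34 ± 0.09 and -0.52 ± 0.12) and LAMA5 (-0.5 ± 0.15 in OS-LM1) were also lower in each line. LAMC1 was higher in each (0.37 ± 0.08 and 0.40 ± 0.08). Lost under several alternatives were the ITGA3 call in OS-LM1, the ITGB8 call in 786-M1A and both LAMA5 calls. Of the 34 members tested for a difference of this contrast between lines, 8 were called, against 27.2% of all genes. ITGA1 (-1.57 ± 0.19, adjusted p = 1.0e-06), LAMB3 (-1.09 ± 0.20, adjusted p = 1.9e-04), ITGA2 (-0.77 ± 0.13, adjusted p = 1.5e-04) and ITGB5 (0.79 ± 0.17, adjusted p = 0.00118) were among them. With replicates 3 and 4 of 786-M1A shPAX8-1 alone, 13 were called.

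Genes that act beside the members were counted from written lists, with the direction of each called gene against sgNTC18 given for shPAX8-1 and then shPAX8-2. Over all genes, 36.1% and 31.5% were called higher and 34.5% and 30.9% lower in 786-M1A cells, and 35.6% and 34.3% higher and 35.8% and 34.1% lower in OS-LM1 cells. No list was tested against these shares. Of 31 tested activators and adaptors of integrins in 786-M1A cells, 6 and 4 were higher and 17 and 11 lower, with a median log2 fold change of -0.43 and -0.21. In OS-LM1 cells 12 and 17 of 30 were higher and 8 and 6 lower, with medians of -0.01 and 0.30. ACTN4, an actin cross-linker of adhesions, fell in both lines (-2.57 ± 0.17 and -1.33 ± 0.17 in 786-M1A, then -1.23 ± 0.10 and -0.53 ± 0.10). TNS3, a tensin that binds β subunit tails, rose in OS-LM1 cells (1.98 ± 0.10 and 1.67 ± 0.10).

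Of 11 tested basement membrane partners and other laminin receptors in 786-M1A cells, 7 and 8 were higher and 3 and 2 lower, and of 13 in OS-LM1 cells, 6 and 6 were higher and 4 and 5 lower. BCAM, a receptor for the laminin α5 chain, rose in 786-M1A cells (3.30 ± 0.27 and 4.40 ± 0.27), and NTN4, a netrin that binds laminin γ chains, rose in both lines (2.35 ± 0.14 and 1.57 ± 0.14, then 2.39 ± 0.10 and 1.30 ± 0.10). AGRN, the laminin-binding proteoglycan agrin, fell in both (-1.51 ± 0.22 and -0.68 ± 0.22, then -1.05 ± 0.16 and -0.69 ± 0.16). COL4A2, a collagen IV chain, rose in 786-M1A (0.33 ± 0.14 and 0.87 ± 0.14) and fell in OS-LM1 cells (-2.24 ± 0.15 and -1.30 ± 0.14).

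Of 15 tested integrin ligands in 786-M1A cells, 10 and 11 were higher and 1 and 2 lower, and of 17 in OS-LM1 cells, 11 and 10 were higher and 4 and 5 lower. CTGF, a matricellular ligand now named CCN2, rose in both lines (2.61 ± 0.13 and 2.02 ± 0.12, then 4.22 ± 0.11 and 5.86 ± 0.12). FN1, fibronectin, fell in both while its receptor subunit ITGA5 rose (-1.68 ± 0.13 and -1.10 ± 0.13, then -0.50 ± 0.08 and -0.28 ± 0.08). EDIL3, a ligand of αvβ3 and αvβ5, rose in 786-M1A (1.82 ± 0.15 and 1.91 ± 0.15) and fell in OS-LM1 cells (-3.46 ± 0.12 and -2.28 ± 0.11). Of 6 tested tetraspanins, 0 and 1 were higher and 5 and 2 lower in 786-M1A cells, and 1 and 1 higher and 5 and 5 lower in OS-LM1 cells. TSPAN4 fell in all 4 comparisons (-1.54 ± 0.18 and -0.77 ± 0.17, then -1.42 ± 0.10 and -1.45 ± 0.10), and the single tetraspanin that rose in OS-LM1 cells was CD9 (2.09 ± 0.11 and 2.13 ± 0.11).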

How the data were processed

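RNA-seq of 24 libraries was analysed, 4 for each of sgNTC18, shPAX8-1 and shPAX8-2 in 786-M1A and OS-LM1 cells. Libraries were prepared from poly(A) RNA. Per the labels the kit was KAPA Stranded mRNA-seq, whereas the study's methods name Lexogen kits. The authors mapped reads to hg38 with Bowtie2 and RSEM, and whether counting used strand was not given in the sources used here, so that reads of antisense genes are uncertain. The deposited files hold an expected count, TPM and FPKM per gene for each library, with no replicates pooled. The deposited TPM is normalized for length and library by RSEM, and FPKM was not used. No row without a gene name was counted.

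Expected counts were rounded to whole numbers. Low genes were removed with filterByExpr of edgeR 4.0.16 (R 4.3.3), libraries were scaled by TMM, and contrasts were tested by quasi-likelihood (robust setting), p-values being adjusted by Benjamini-Hochberg over all genes tested, from 12 libraries for comparisons within a line and from 24 for comparisons between lines. CPM use the TMM library sizes. The low-count filter keeps a gene that is high in 1 group alone, so a rise from a low control level can decide its entry to the test. The SE is the fold change over the square root of F. The steps were tested on simulated data. Alternatives were DESeq2 1.42.0 and its size factors, no low-count filter, each library left out, a replicate block, a stricter threshold (0.01), a minimum size of 0.58 on the log2 scale, removal of each library's GC trend, thinning, 1 fit of 24 libraries and recomputed TPM. The alternative of either pair of 786-M1A shPAX8-1 libraries was chosen after seeing the data.

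A member that enters the counts is not reported by name here. Members and lists were chosen with earlier results of these data known. Members with a mean of at least 1 CPM in a group were named, with fold changes for the 28 called at an absolute log2 fold change of at least 1 in any comparison and for their partners ITGA6, ITGAV, ITGB1 and LAMC1. List genes are those with the largest changes, of which a subset is printed. Replicates are not stated to be separate cultures, so p-values measure the spread between these libraries, which may be technical. The replicates differed by more than sampling noise (a chi-square of at least 3.58 per gene). Motifs and promoters are from RefSeq GRCh38.p14 and 3′ UTRs from GENCODE on hg38, for 38 of 38 members.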

Additional observations from a re-analysis of the deposited data

Results flagged for a closer look

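Of 186 groups of 4 libraries checked, 8 held a library far from the others, where chance alone flags about 1 in 20 groups, or 9.3 here. They were ITGA4 in OS-LM1 shPAX8-1 (0.0803 CPM) and shPAX8-2 (0.179 CPM), ITGA6 in OS-LM1 shPAX8-2 (18.4 CPM), ITGA7 in OS-LM1 shPAX8-1 (1.14 CPM), ITGAE in OS-LM1 shPAX8-1 (35.3 CPM), ITGAM in 786-M1A sgNTC18 (0.498 CPM), ITGAV in 786-M1A shPAX8-2 (327 CPM) and ITGB5 in 786-M1A shPAX8-2 (449 CPM).

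The change on PAX8 depletion differed between the lines (OS-LM1 minus 786-M1A, log2 scale, edgeR interaction term) for several members. Positive differences were those of ITGB8 (3.70), LAMA4 (1.86), ITGB6 (1.29), LAMA2 (1.26), ITGA3 (0.61), ITGA1 (0.59) and ITGA5 (0.49). Negative differences among integrins were those of ITGB2 (-3.67), ITGAX (-3.52), ITGA2 (-1.79), ITGA10 (-1.33), ITGB4 (-1.14), ITGB7 (-0.91), ITGB1 (-0.86) and ITGAV (-0.42). Among laminins they were those of LAMA3 (-1.59), LAMB3 (-1.53), LAMB2 (-0.62), LAMC1 (-0.58) and LAMB1 (-0.52). The ITGB2 value rests on few reads in OS-LM1 cells. Some of these calls were weak. ITGA10 was lost with no low-count filter (adjusted p = 0.055), when libraries were thinned (adjusted p = 0.053), with replicates 3 and 4 of 786-M1A shPAX8-1 alone (-1.19, adjusted p = 0.087) and without any 1 of 11 libraries, down to -0.97 without OS-LM1 sgNTC18 replicate 2. ITGB4 was lost when thinned (adjusted p = 0.13), with the same replicates 3 and 4 alone (-0.76, adjusted p = 0.094) and without several single libraries. ITGAV was lost without 786-M1A sgNTC18 replicate 2 or 3 or OS-LM1 sgNTC18 replicate 3 (-0.36, -0.39 and -0.37).

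The difference between shPAX8-1 and shPAX8-2 itself differed between the lines for 8 members, with ITGAL (1.96) and ITGB5 (0.79) positive and ITGA1 (-1.57), LAMB3 (-1.09), ITGA2 (-0.77), ITGAV (-0.75), ITGB3 (-0.66) and LAMB1 (-0.45) negative. ITGAL stayed under 1 CPM in every group. Its call was lost with DESeq2 (adjusted p = 0.063), with the replicate block (adjusted p = 0.071), with GC trends removed (adjusted p = 0.055), with no low-count filter (adjusted p = 0.07), with replicates 1 and 2 of 786-M1A shPAX8-1 alone (1.66, adjusted p = 0.22) and without any 1 of 15 libraries, down to 1.49 without 786-M1A shPAX8-2 replicate 2. ITGAV was at -0.29 (adjusted p = 0.07) with GC trends removed and -0.45 (adjusted p = 0.059) with the same replicates 1 and 2 alone.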

How the results depend on the processing

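The count of called members stayed within 1.5 times its value under all alternatives but a pair. Between constructs in OS-LM1 cells it was 5 with a minimum log2 fold change of 0.58, against 12, and for the line difference between constructs it was 13 with replicates 3 and 4 of 786-M1A shPAX8-1 alone, against 8. Leaving out 1 library gave 23 to 26 members for shPAX8-1 and 21 to 24 for shPAX8-2 in 786-M1A cells. The OS-LM1 ranges were 22 to 25 and 19 to 24. Between constructs it gave 11 to 15 and 10 to 15, between control lines 21 to 24, and for the line differences 19 to 22 and 7 to 11.

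Some values changed sign. All were uncalled except LAMB3 with shPAX8-1 in OS-LM1 cells (-0.36, adjusted p = 0.0302) and LAMA5 between control lines (-0.55, adjusted p = 0.0255). LAMA5 with shPAX8-1 in 786-M1A cells was -0.27 with replicates 3 and 4 alone and ran from -0.01 to 0.35 without 1 library. ITGB5 with shPAX8-2 in 786-M1A cells was -0.06 with no low-count filter, -0.01 with DESeq2, -0.02 in 1 fit of 24 libraries and -0.02 with replicates 1 and 2 of shPAX8-1 alone, and ran from -0.03 to 0.07 without 1 library. LAMA2 with shPAX8-2 in 786-M1A cells ran from -0.33 to 0.01. In OS-LM1 cells with shPAX8-1, ITGA2 ran from -0.01 to 0.05 and ITGA6 from -0.10 to 0.03, with 0.06 when libraries were thinned. PAX8 between constructs in OS-LM1 cells ran from -0.14 to 0.09. With the GC trend removed, ITGA2 (-0.31), ITGAV (-0.40) and LAMB3 (0.05) with shPAX8-1 in OS-LM1 cells, PAX8 between constructs there (0.05) and LAMA5 between control lines (0.12) changed sign. The cause was not tested.

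Among calls lost without 1 library, ITGA6 with shPAX8-2 in OS-LM1 cells was lost without sgNTC18 replicate 1 or 3 or shPAX8-2 replicate 1, 3 or 4 (-0.28 to -0.25). LAMB3 with shPAX8-1 in OS-LM1 cells was lost without sgNTC18 replicate 1, 2 or 3 or shPAX8-1 replicate 1 or 4 (-0.37 to -0.26). LAMC1 in OS-LM1 cells was lost without shPAX8-1 replicate 2 or 3 (0.17 and 0.18), or sgNTC18 replicate 1 or shPAX8-2 replicate 4 (-0.19 and -0.16). LAMA4 with shPAX8-2 in 786-M1A cells was lost without sgNTC18 replicate 1, 3 or 4 or shPAX8-2 replicate 1 or 4 (0.99 to 1.23). ITGB4 in the line difference was -0.76 without 786-M1A sgNTC18 replicate 1.

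Same-numbered replicates did not deviate together (a correlation over 0.1 in 6 of 24 pairs), so the numbers were not taken to pair libraries. With the replicate block the counts were 24 and 22 (786-M1A) and 23 and 21 (OS-LM1) against sgNTC18, 15 and 11 between constructs, 21 between control lines and 22 and 8 for the line differences. Low depth limits members under 1 CPM.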
